A study of Mus musculus with 42 samples.

Results

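Skeletal muscle of mice with diabetic macroangiopathy that had received rosiglitazone was compared with skeletal muscle of healthy mice, across all genes of the array. The members were the 6 arrays labelled rosiglitazone_muscle and healthy_muscle, 3 per group, of 42 arrays in the series, and 3 mice per group were sampled. The series measured total RNA of skeletal muscle and aorta in 7 groups of mice on single-colour Agilent arrays. The comparison asks which muscle transcripts still differed from the healthy state after the drug.

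The healthy group was male C57BL/6 mice that received saline by gavage. The rosiglitazone group was male KK/Ay mice, a diabetic strain that carries the yellow allele (Ay) of the agouti gene. The mice were 18 to 20 weeks old on entry, before the treatments. The rosiglitazone group was given a high-fat diet with the nitric oxide synthase inhibitor L-NAME for 8 weeks to produce macroangiopathy, and then rosiglitazone by gavage for 8 weeks. The groups therefore differed in strain, diabetes, diet, L-NAME and drug at once, and the share of each in a difference cannot be told apart here. A single strain stood for each state, so each model is limited to that genetic background, and the muscle that was sampled is not named in the sources used here. In whole tissue, fewer cells of a type and less RNA per cell cannot be told apart either.

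Rosiglitazone is a thiazolidinedione that activates the nuclear receptor PPARG, which is most abundant in adipocytes and drives genes of fat storage and insulin sensitivity. In muscle, the amount of contractile protein is set by synthesis and by degradation through muscle-restricted ubiquitin ligases, whose genes respond to insulin, glucocorticoids and FOXO factors. Fibre type, mitochondrial genes and a circadian clock run in the same fibres, and resident immune cells express the antigen presentation and interferon genes.

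The healthy arrays differed from each other more than the rosiglitazone arrays did, which bears on every result. The median SD over genes was 0.27 on the log2 scale for healthy muscle and 0.12 for rosiglitazone muscle, and between 0.11 and 0.12 in the other 5 muscle groups. Correlations between arrays over the genes tested were 0.931 to 0.962 within the healthy group and 0.987 to 0.994 within the rosiglitazone group. Between the groups they were 0.918 to 0.978. Healthy array 2 correlated at 0.962 and 0.931 with healthy arrays 1 and 3. With rosiglitazone arrays 1, 2 and 3 it correlated at 0.97, 0.976 and 0.978, thus more closely than with its own group. Median processed signals of the scanner files were 34.1, 24.7 and 58 in healthy arrays 1, 2 and 3. In rosiglitazone arrays 1, 2 and 3 they were 23.2, 23.1 and 23.7. The part of array brightness was not tested. The skeletal muscle label held for all 6 arrays, with Acta1, the skeletal actin, between 17.30 and 17.71 and the summed signal of 13 muscle fibre markers between 19.47 and 19.63 on the log2 scale.

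Markers of skin keratinocytes varied widely among the healthy arrays. Krt5, a keratin of the basal epidermis, was at 12.02, 6.31 and 14.43 in healthy arrays 1, 2 and 3 and at 8.07, 8.45 and 9.92 in rosiglitazone arrays 1, 2 and 3. The summed signal of 6 keratinocyte markers was 13.50, 9.18 and 15.76 in the healthy arrays and 10.39, 10.36 and 11.69 in the rosiglitazone arrays. Healthy array 1 was also the highest for 10 lymphocyte markers, at 12.14, against 9.90 and 9.84 in the other healthy arrays and 9.48 to 9.55 in rosiglitazone muscle. Healthy array 2 was the lowest of the 6 for keratinocyte markers. Krt5 also varied in other muscle groups, at 6.45, 13.91 and 9.12 in diabetic and 11.38, 13.36 and 6.26 in macroangiopathy muscle. The part of these cells in the results below was not tested.

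**Figure D1:**
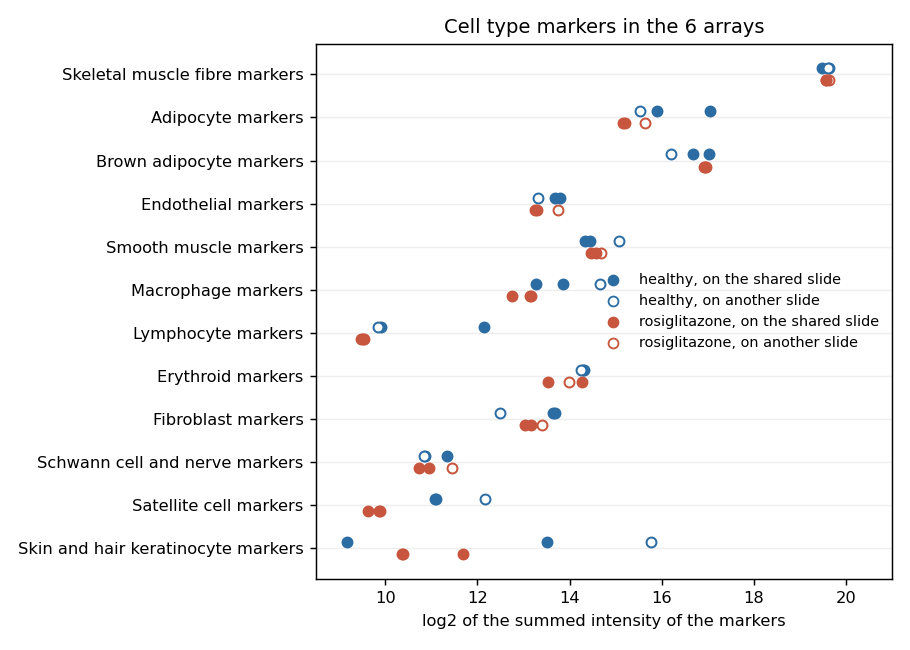
Summed intensity of the markers of 12 cell types on the log2 scale (x axis) in the 3 healthy and the 3 rosiglitazone muscle arrays, with filled points for the 4 arrays on the shared slide. Muscle fibre markers lie between 19.47 and 19.63 in all 6 arrays, whereas keratinocyte markers reach from 9.18 to 15.76 among the healthy arrays.

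The arrays were hybridized on glass slides that hold several arrays each. Healthy arrays 1 and 2 and rosiglitazone arrays 2 and 3 shared a slide, whereas healthy array 3 and rosiglitazone array 1 each lay on another slide without the opposite group. The difference was therefore estimated over the 6 arrays and again within the shared slide, with slide as a block and the spread taken from all 21 muscle arrays. The within-slide estimate uses 4 of the same 6 arrays and is no independent replicate.

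Of 13544 genes tested, 258 differed at an adjusted p below 0.05, which is 1.9% of the genes. Expression was higher in rosiglitazone muscle for 138 genes (1.02%) and lower for 120 genes (0.886%). At an unadjusted p below 0.05, 2484 genes (18.3%) differed, 1502 higher (11.1%) and 982 lower (7.25%). The median difference of all genes was 0.05 on the log2 scale. In all 258 genes the groups did not overlap, among 3691 genes (27.3%) without overlap, 2358 higher (17.4%) and 1333 lower (9.84%). The changes among called genes ranged from 1.59-fold to 26.3-fold with a median of 2.58-fold, and 49 genes passed 4-fold.

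Within the shared slide, 248 of the 258 genes also had an adjusted p below 0.05 in the same direction (1.83% of the genes tested), 132 higher (0.975%) and 116 lower (0.856%). Their direction was fixed, since the groups of all 258 do not overlap and the slide holds 4 of the same arrays. That fit called 2062 genes in all (15.2%), 1215 higher (8.97%) and 847 lower (6.25%), with the spread of 21 arrays, most of which are from groups less variable than the healthy one. The 4 arrays of the slide alone called 108 genes (0.797%), 43 higher (0.317%) and 65 lower (0.48%), and 93 of them were among the 258. The number of calls on the 6 arrays depended on single libraries. It was 121 without healthy array 1, 988 without healthy array 2, and 48, 46 and 60 without rosiglitazone arrays 1, 2 and 3.

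**Figure D2:**
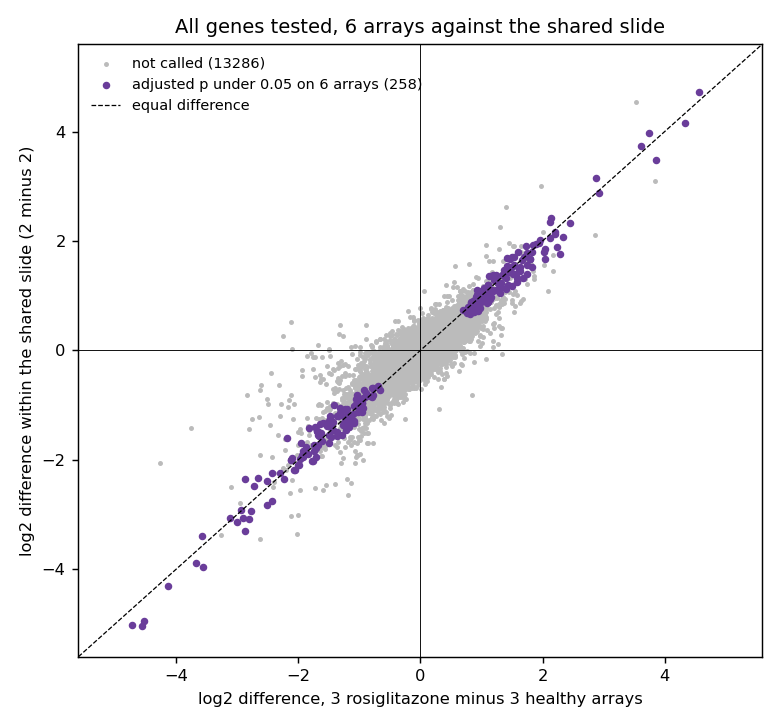
Log2 difference (rosiglitazone minus healthy) of each gene tested over 6 arrays (x axis) and within the shared slide (y axis), with the 258 called genes in purple and a dashed line of equal difference. The 4 arrays on the slide are among the 6, so that the called genes, whose groups do not overlap, had to keep their sign, and the plot shows how far their sizes differ.

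The 12 largest increases and the 12 largest decreases were chosen among calls without overlap, so that lack of overlap adds no support for them. Among the largest increases was the agouti gene. The gene a encodes agouti signalling protein, which acts on melanocortin receptors and is transcribed widely in animals with the yellow allele. Its probe (chr2:154871493-154873446, mm9) read 5.56, 5.38 and 5.43 in the healthy arrays and 10.10, 9.62 and 9.65 in the rosiglitazone arrays on the log2 scale. The probe was not well above background in any healthy array, so that the transcript was at least 19.3-fold higher in rosiglitazone muscle (log2 difference 4.33, SE 0.17, adjusted p = 0.000345). All rosiglitazone arrays lay far above all healthy arrays.

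Nnt, the mitochondrial transhydrogenase that makes NADPH and is deleted in part in the C57BL/6J substrain, was at 10.01, 9.78 and 9.76 in healthy muscle and 11.47, 11.55 and 11.54 in rosiglitazone muscle. All rosiglitazone arrays were above all healthy arrays. The difference was 1.66 (SE 0.13, adjusted p = 0.00251), and its 3 probes on chromosome 13 gave differences from 1.58 to 1.75.

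The largest increase of all was Gdpd3, a lysophospholipase D of the glycerophosphodiesterase family. Its levels were 6.72, 6.46 and 7.29 in healthy muscle and 11.54, 11.19 and 11.44 in rosiglitazone muscle (23.7-fold, log2 difference 4.57, SE 0.23, adjusted p = 0.000746). The transcript 1700020D05Rik was at 6.59, 7.14 and 7.09 against 10.36, 10.77 and 10.91. Gal3st1, which adds sulfate to galactosylceramide to form sulfatide, was at 6.31, 5.63 and 6.28 against 9.64, 9.93 and 9.49. Each of these genes was lower in every healthy array than in any rosiglitazone array, which the selection required.

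The other increases among the 12 largest were LOC100504785 (3.86), Opn1mw, a cone opsin (2.88), Slc22a2, an organic cation transporter (2.92), Abhd1 (2.46), Ankrd61 (2.33), Gbp2b (2.28), Lep (2.23) and Actr3b (2.21), as log2 differences. Healthy levels of Gal3st1, Opn1mw and Gbp2b were well above background on 2 of 3 arrays and those of LOC100504785, Slc22a2 and Lep on 1 of 3, so that their sizes rest partly on dim signals. Gbp2b, an interferon-inducible guanylate-binding protein, was at 6.23, 6.10 and 4.77 in healthy muscle and 8.09, 7.86 and 7.99 in rosiglitazone muscle. Its groups did not overlap, and healthy array 3 was the lowest.

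Pttg1, the securin that holds sister chromatids together until anaphase, had the largest decrease. Its levels were 13.69, 13.82 and 12.89 in healthy muscle and 8.76, 8.57 and 8.91 in rosiglitazone muscle (26.3-fold, log2 difference -4.72, SE 0.26, adjusted p = 0.000774). Gmnn, geminin, an inhibitor of DNA replication licensing, was at 10.21, 9.84 and 10.32 against 7.06, 6.83 and 7.10. Ctsh, the lysosomal protease cathepsin H, was at 13.60, 12.09 and 12.36 against 9.11, 8.73 and 9.19. In each of them even the lowest healthy array was above the highest rosiglitazone array, which the selection required.

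Several of the lower transcripts were not well above background in rosiglitazone muscle. The transcript 5830417I10Rik was not well above background in any rosiglitazone array and was at least 14-fold lower, from a mean of 9.30 to 5.16 on the log2 scale. The same held for Ifi47 (at least 10.6-fold, means 8.91 and 5.33), Tmem45b (at least 7.99-fold, 8.70 and 5.70) and LOC100505027 (at least 7.32-fold, 8.40 and 5.48). In diabetic and macroangiopathy muscle, without the drug, the means were 5.34 and 5.24 for 5830417I10Rik, 5.76 and 6.09 for Ifi47, 5.89 and 5.88 for Tmem45b, and 5.19 and 5.32 for LOC100505027. Ccl5, a chemokine that attracts T cells, was at 10.30, 8.16 and 9.60 in healthy muscle and 6.66, 6.32 and 6.29 in rosiglitazone muscle.

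Major urinary proteins, pheromone carriers secreted mainly by the liver, were among the largest decreases. Mup1 was at 13.08, 10.33 and 11.20 in healthy muscle and 7.52, 6.46 and 7.08 in rosiglitazone muscle (log2 difference -4.52, SE 0.66, adjusted p = 0.0259). Mup4 was at 12.67, 9.95 and 10.78 against 7.19, 6.15 and 6.41 (-4.55, SE 0.66, adjusted p = 0.0256). The groups did not overlap, and healthy array 1 was the highest of the healthy arrays for both. The Mup genes are near-identical copies, so that these probes may read the same transcripts and the single gene is uncertain. Without any 1 rosiglitazone array the calls were lost, with adjusted p from 0.106 to 0.138 (limma). Those of Ccl5, Ifi47, Gbp2b and Actr3b were also lost without any 1 rosiglitazone array, those of Ccl5 and Actr3b without healthy array 1 or 3, and that of Gbp2b without healthy array 1. That of Ctsh was lost without rosiglitazone array 1 or 2 and that of Ankrd61 without array 2.

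**Figure D3:**
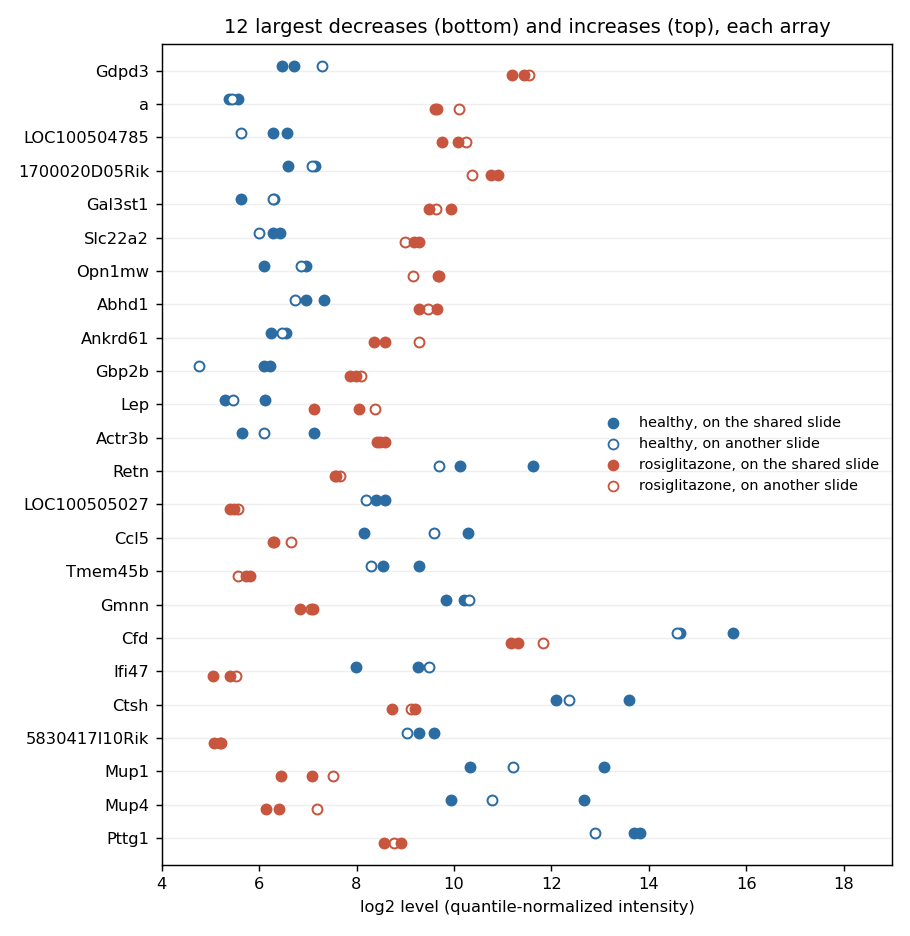
Log2 level (x axis) of the 12 largest increases and the 12 largest decreases in each of the 6 arrays, healthy in blue and rosiglitazone in red, filled on the shared slide. Levels of the groups do not overlap for any of the 24 genes, which the selection required, and healthy values are the wider spread for Mup1, Mup4, Retn and Ccl5.

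Among genes of muscle protein breakdown, 3 of 25 were called lower, beside 0.886% of all genes. Of the 3, 2 were ubiquitin ligases. Trim63 encodes MuRF1, a ubiquitin ligase of the sarcomere, and was at 15.14, 14.71 and 15.40 in healthy muscle and 13.05, 12.87 and 12.97 in rosiglitazone muscle. It fell 4.34-fold (log2 difference -2.12, SE 0.19, adjusted p = 0.00435). Fbxo32, which encodes the ligase atrogin-1, was at 12.81, 12.74 and 12.95 against 11.10, 11.24 and 11.67 (-1.50, SE 0.18, adjusted p = 0.0122). All 3 healthy arrays lay above all 3 rosiglitazone arrays for both ligases.

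Klf15, a glucocorticoid-induced factor of amino acid catabolism, was at 9.97, 9.95 and 10.19 in healthy muscle and 9.17, 8.90 and 9.33 in rosiglitazone muscle (-0.91, SE 0.16, adjusted p = 0.0438). Cdkn1a, the cell cycle inhibitor p21, was at 10.88, 10.60 and 12.46 against 9.08, 8.66 and 8.91 and did not pass (-2.43, SE 0.46, adjusted p = 0.0544). Of 25 tested genes of atrophy and autophagy, 3 were called lower and none higher, beside 0.886% and 1.02% of all genes. At an unadjusted p below 0.05 there were 11 lower and 1 higher, beside 7.25% and 11.1% of all genes. The list's median difference was -0.36, beside 0.05 for all genes. Gadd45a, a stress gene from the separate list of regeneration and denervation genes, was at 9.84, 9.15 and 10.78 against 6.86, 8.27 and 7.63 (-2.33, SE 0.48, adjusted p = 0.0698). The call of Trim63 held in every alternative run, whereas that of Fbxo32 was lost without rosiglitazone array 1 or 2 and that of Klf15 without any 1 array other than healthy array 2.

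Of 14 slow fibre genes tested, 1 was called higher, beside 1.02% of all genes. Tnni1, slow skeletal troponin I, was at 12.87, 12.57 and 12.58 in healthy muscle and 13.94, 13.99 and 13.91 in rosiglitazone muscle, with no overlap. It rose 2.42-fold (log2 difference 1.27, SE 0.14, adjusted p = 0.00815), and was the only 1 of 14 slow fibre genes called on the 6 arrays. Other thin filament genes of slow fibres had positive differences that did not pass, with Tnnt1 at 0.68 (SE 0.16, adjusted p = 0.0999) and Tnnc1 at 0.92 (SE 0.24, adjusted p = 0.115). Csrp3, a stretch sensor of the Z-disc, was at -0.81 (SE 0.21, adjusted p = 0.114). The median of the list was 0.46. Within the shared slide 6 of its members were called higher and none lower, beside 8.97% and 6.25% of all genes in that fit. Of 16 fast fibre genes, none was called by limma and the median was 0.21. At an unadjusted p below 0.05, 2 were higher and none lower, beside 11.1% and 7.25% of all genes. The call of Tnni1 was lost without rosiglitazone array 1, 2 or 3.

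Of the clock genes, 1 activator was called lower and 2 repressors higher, beside 0.886% and 1.02% of all genes. Arntl encodes BMAL1, the activator that with CLOCK binds E-boxes, and was at 9.40, 10.47 and 10.10 in healthy muscle and 8.26, 8.32 and 8.41 in rosiglitazone muscle (3.16-fold lower, log2 difference -1.66, SE 0.27, adjusted p = 0.0332). Per3, a period repressor, was at 7.17, 7.13 and 6.70 against 8.10, 8.09 and 8.07 (1.08, SE 0.16, adjusted p = 0.0281). Bhlhe41, a repressor that competes at E-boxes, was at 6.66, 6.89 and 6.54 against 7.50, 7.74 and 7.61 (0.91, SE 0.15, adjusted p = 0.0348). The rosiglitazone arrays were below the healthy ones for Arntl and above them for both repressors.

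Of 14 clock repressors and output genes, 2 were called higher and none lower, beside 1.02% and 0.886% of all genes. Their median was 0.47. At an unadjusted p below 0.05, 7 were higher and 1 lower, beside 11.1% and 7.25% of all genes. Tef, a PAR-domain output factor, was at 0.49 (SE 0.12, adjusted p = 0.114) and Tspan4 at 0.71 (SE 0.16, adjusted p = 0.0874). Of the 5 tested genes listed as clock activators, among them the repressor Nfil3, Arntl was the only one called. The calls of Arntl, Per3 and Bhlhe41 were lost without rosiglitazone array 1, 2 or 3, that of Arntl without healthy array 3, and those of the repressors without healthy array 1. The time of day of sampling is not given in the sources used here, and its part was not tested.

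Promoter sequences are shown for genes of the protein breakdown, clock and interferon groups, because motifs bound by forkhead, clock and interferon-activated factors were searched in them. They are from the RefSeq table of build GRCm38.p6, which is the C57BL/6J sequence, so that the KK/Ay sequence may differ. Windows before the transcription start are given 5′ to 3′ on the strand of the gene, with the motif in capitals.

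Trim63, chr4:134314881-134314977, plus strand, forkhead motif GTAAACA or its reverse complement: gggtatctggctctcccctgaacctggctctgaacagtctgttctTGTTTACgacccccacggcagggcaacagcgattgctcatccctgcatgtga
Bhlhe41, chr6:145865523-145865618, minus strand, E-box CACGTG: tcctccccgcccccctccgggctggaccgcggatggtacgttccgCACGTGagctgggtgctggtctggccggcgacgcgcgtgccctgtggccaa
Per3, chr4:151044771-151044868, minus strand, D-box TTATGTAA: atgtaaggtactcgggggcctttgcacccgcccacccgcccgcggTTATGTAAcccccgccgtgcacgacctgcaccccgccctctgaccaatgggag
Cxcl10, chr5:92349048-92349139, minus strand, interferon-stimulated response element (GAAA, 2 bases, GAAA): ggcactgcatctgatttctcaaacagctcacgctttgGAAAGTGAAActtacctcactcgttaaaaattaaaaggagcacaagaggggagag
Gbp2, chr3:142620559-142620658, plus strand, the same element in reverse: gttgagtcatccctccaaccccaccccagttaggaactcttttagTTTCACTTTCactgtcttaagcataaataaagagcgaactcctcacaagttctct
Gbp2b, chr3:142594665-142594764, plus strand, the same element in reverse: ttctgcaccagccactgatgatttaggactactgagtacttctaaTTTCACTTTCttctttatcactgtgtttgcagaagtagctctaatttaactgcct

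Motifs were searched on both strands from 250 bases before to 50 bases after each start, in 32851 promoters of which some genes have several. The E-box was in 7.15% of all promoters and in 40% of the 15 promoters of tested clock repressor and output genes. They belong to Bhlhe41, Cry1, Per1, Tef and Tspan4. The D-box was in 0.938% of all promoters and in 6.67% of the same 15, in Per3 alone. The ROR element (AGGTCA) was in 16.3% of all promoters and in 42.9% of the 7 promoters of genes listed as clock activators. The forkhead motif was in 3.65% of all promoters and in 8.33% of the 24 promoters of atrophy genes, those of Trim63 and Sesn1. The interferon element was in 3.44% of all promoters, in 54.5% of the 22 of interferon genes and in 15.8% of the 19 of antigen presentation genes. A match is a description of the letters only.

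Of 22 antigen presentation genes tested, 1 was called lower, beside 0.886% of all genes. In the list 21 genes had a negative difference and the median was -1.05, beside 0.05 for all genes. H2-Q10, a class I gene, was at 9.17, 8.11 and 9.05 in healthy muscle and 7.15, 7.22 and 7.06 in rosiglitazone muscle, and it was the only member called (log2 difference -1.63, SE 0.28, adjusted p = 0.0415). At an unadjusted p below 0.05, 13 were lower and none higher, beside 7.25% and 11.1% of all genes. Within the shared slide 17 were called lower and none higher, beside 6.25% and 8.97% of all genes in that fit. The groups of H2-Q10 did not overlap, and healthy array 2 was the lowest of the healthy arrays.

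H2-T23 encodes Qa-1, the class I molecule that presents leader peptides to natural killer cells, and was at 12.07, 10.73 and 12.44 against 8.11, 8.08 and 9.74 (-3.10, SE 0.58, adjusted p = 0.052). B2m, the light chain of all class I molecules, was at 11.70, 10.77 and 11.38 against 10.13, 10.22 and 10.17 (-1.11, SE 0.24, adjusted p = 0.0757), and H2-Q4 was at 12.47, 11.21 and 12.73 against 10.58, 10.44 and 10.26 (-1.71, SE 0.38, adjusted p = 0.0825). The groups did not overlap for any of these 3 genes, but none passed. The H2 genes are polymorphic between strains and near-identical among themselves, and whether probes bind the KK/Ay transcripts as well was not tested. The call of H2-Q10 was lost without any 1 array other than healthy array 2.

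Of the 22 tested members of the interferon response list, 1 was called, beside 1.9% of all genes. The list leaves out Ifi47 and Gbp2b, given above, and Irgm2 and Tgtp1, given below, which were also called. Gbp2b was higher and the others lower. Cxcl10, a chemokine induced by interferon gamma, was at 7.66, 7.06 and 8.41 in healthy muscle and 5.05, 5.49 and 6.04 in rosiglitazone muscle (4.55-fold, log2 difference -2.18, SE 0.38, adjusted p = 0.0434). It was well above background on 1 of 3 rosiglitazone arrays. It was the only 1 of 22 tested called in either direction, and the median was -0.55. At an unadjusted p below 0.05, 12 were lower and none higher, beside 7.25% and 11.1% of all genes. Within the shared slide 10 were called lower, beside 6.25% of all genes in that fit. Gbp2 was at 11.32, 10.43 and 10.94 against 9.84, 9.44 and 9.53 (-1.30, SE 0.24, adjusted p = 0.0534), whereas Gbp2b, its neighbour on chromosome 3, rose by 2.28 as given above.

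Bst2, tetherin, was at -1.68 (SE 0.45, adjusted p = 0.125). Macrophage markers also had negative differences without a call. All 12 tested had negative differences with a median of -0.80, and none was called by limma. At an unadjusted p below 0.05, 7 were lower, beside 7.25% of all genes. Their summed signal was 13.86, 13.28 and 14.65 in healthy muscle and 13.14, 12.74 and 13.16 in rosiglitazone muscle, and Adgre1, a macrophage surface receptor, was at 7.83, 7.75 and 7.97 against 6.98, 7.27 and 7.27. Macrophage and lymphocyte markers were highest in healthy arrays 3 and 1, and their part in the antigen presentation and interferon results was not tested. The call of Cxcl10 was lost without any 1 array other than healthy arrays 2 and 3.

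Adipocyte genes did not move together. Cfd encodes adipsin, a complement protease secreted by fat, and was at 15.74, 14.64 and 14.57 in healthy muscle and 11.82, 11.16 and 11.31 in rosiglitazone muscle. It fell 11.7-fold (log2 difference -3.55, SE 0.34, adjusted p = 0.00515). Retn, the adipokine resistin, was at 11.62, 10.12 and 9.70 against 7.66, 7.58 and 7.57 (-2.88, SE 0.46, adjusted p = 0.032). Lep, leptin, was at 6.13, 5.29 and 5.47 against 8.39, 8.05 and 7.14 (2.23, SE 0.36, adjusted p = 0.0336). The groups did not overlap for any of these adipokines, with adipsin and resistin low and leptin high in all rosiglitazone arrays. The summed signal of the adipocyte markers was 17.04, 15.90 and 15.52 in healthy and 15.64, 15.19 and 15.16 in rosiglitazone muscle. Healthy array 1, the highest, was also the highest for Cfd and Retn. Within the shared slide the list median was -0.68, with 3 called lower and none higher, beside 6.25% and 8.97% of all genes. The part of fat content was not tested.

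The other 8 adipocyte markers tested, among them Adipoq, Plin1, Fabp4 and Cidec, had differences from -0.99 to 0.35 and none was called (limma). Pparg, the receptor of rosiglitazone, was at 11.01, 9.79 and 9.49 in healthy muscle and 10.45, 9.82 and 9.62 in rosiglitazone muscle, with overlapping groups (-0.13, SE 0.41, adjusted p = 0.88). Ucp1, the uncoupling protein of brown fat, was not well above background in healthy muscle and was at 6.70, 6.71 and 7.37 in rosiglitazone muscle, at least 2.69-fold higher (1.53, SE 0.21, adjusted p = 0.0192), while the other 4 brown adipocyte markers tested were not called, with differences from -0.15 to 0.32. The call of Cfd held in every alternative run. Those of Retn, Lep and Ucp1 were lost in some, among them without rosiglitazone array 1 or 2, and within the shared slide Lep was at 1.88 (SE 0.65, adjusted p = 0.0654).

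PPAR targets and energy metabolism had few or no calls. Of 39 PPAR target genes of fatty acid handling, none was called by limma, and the median was -0.01. At an unadjusted p below 0.05, 5 were higher and 4 lower, near the 11.1% and 7.25% of all genes. The members pointed both ways. Pdk4, which blocks entry of pyruvate into the citric acid cycle, was at 15.40, 15.84 and 15.41 in healthy muscle and 14.33, 14.80 and 14.27 in rosiglitazone muscle (-1.08, SE 0.20, adjusted p = 0.054). Acadm, medium-chain acyl-CoA dehydrogenase, was at 1.01 (SE 0.29, adjusted p = 0.144) and Ech1, a peroxisomal and mitochondrial isomerase, at 0.70 (SE 0.16, adjusted p = 0.0847). Lpin1, a phosphatidate phosphatase and PPARGC1A partner, was at -1.20 (SE 0.23, adjusted p = 0.0588). Of 31 genes of insulin signalling and glucose uptake none was called, and the median was -0.01. At an unadjusted p below 0.05, 3 were higher and 3 lower, again near the shares of all genes.

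Most respiratory chain genes had small positive differences without a call. None of 70 was called by limma, whereas 64 were above 0 and the median was 0.35. At an unadjusted p below 0.05, 16 were higher and none lower, beside 11.1% and 7.25% of all genes. Of 24 citric acid cycle genes none was called, 9 were higher and 2 lower at an unadjusted p below 0.05, and the median was 0.39. Sdhc, a membrane anchor of succinate dehydrogenase, was at 12.66, 12.95 and 12.33 against 13.67, 13.70 and 13.52 (0.98, SE 0.18, adjusted p = 0.0514). Within the shared slide 10 of the 70 were called higher and 1 lower, beside 8.97% and 6.25% of all genes in that fit.

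No immediate early or heat shock gene was called by limma, while most had negative differences. Of 18 immediate early genes tested, 17 were below 0 with a median of -0.61, and of 26 heat shock and chaperone genes 20 were below 0 with a median of -0.34. No member of either list was called by limma. At an unadjusted p below 0.05 there were 9 lower immediate early genes and 9 lower chaperone genes, beside 7.25% of all genes. Egr1, a growth-induced zinc finger factor, was at 8.87, 8.99 and 10.41 in healthy muscle and 7.31, 8.22 and 7.16 in rosiglitazone muscle (-1.86, SE 0.46, adjusted p = 0.107). Hspa1a, an inducible HSP70, was at 10.61, 11.31 and 11.32 against 10.04, 9.51 and 10.10 (-1.20, SE 0.25, adjusted p = 0.0739). Lox, the enzyme that crosslinks collagen, was the only 1 of 30 matrix genes called, beside 1.9% of all genes. It was at 8.78, 8.76 and 9.01 against 7.80, 7.65 and 7.86 (-1.08, SE 0.14, adjusted p = 0.0159), and lost the call without any 1 rosiglitazone array.

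**Figure D4:**
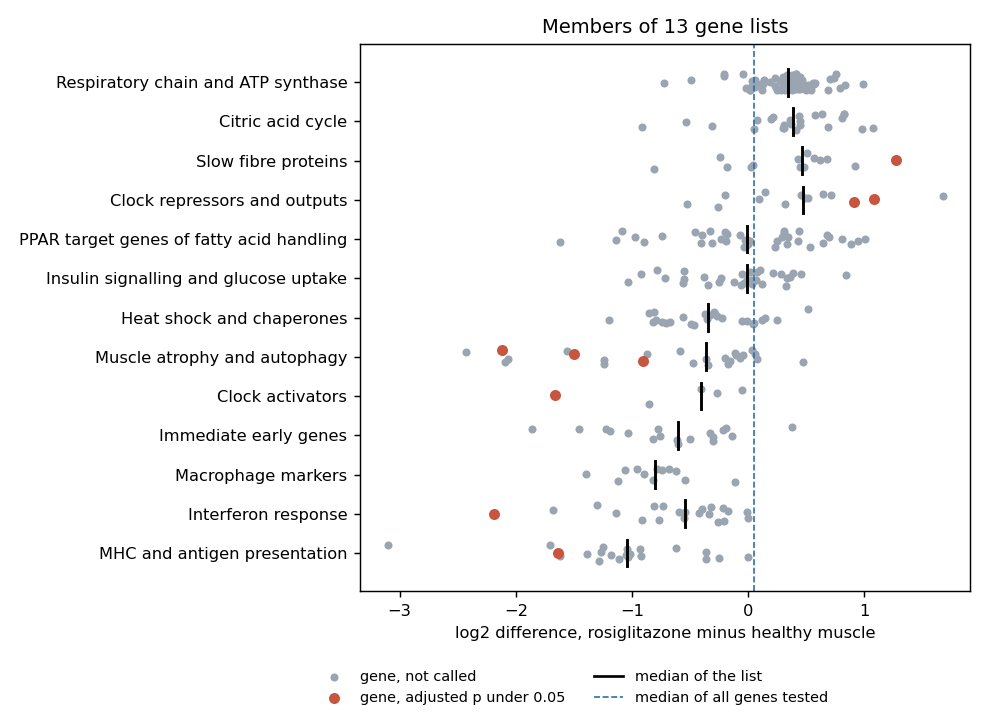
Log2 difference (x axis, rosiglitazone minus healthy muscle) of each tested member of 13 gene lists, with called genes in red, the list median as a black bar and the median of all genes, 0.05, as a dashed line. Medians run from -1.05 for antigen presentation to 0.47 for clock repressors, while few single members pass the test.

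The levels in diabetic and macroangiopathy muscle, both from KK/Ay mice without the drug, were set beside those of the main groups for the genes of each section. These arrays lay on other slides, so that no test was made. Trim63 had means of 12.44 in diabetic and 13.03 in macroangiopathy muscle, near the 12.97 in rosiglitazone muscle and below the 15.09 of healthy muscle. Cfd had means of 11.18 and 11.13, and Nnt of 11.30 and 10.89. All 3 genes were thus on the side of the rosiglitazone group in both groups without the drug.

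Tnni1 was at 13.57, 13.48 and 13.96 in diabetic muscle and 12.95, 13.16 and 13.40 in macroangiopathy muscle, between the healthy and the rosiglitazone arrays in the latter. Per3 was at 7.96, 7.55 and 8.09 and at 7.51, 7.52 and 7.74 in the same order. H2-T23 was at 10.27, 10.62 and 10.10 and at 10.54, 10.77 and 10.18, above the 9.74 of the highest rosiglitazone array. A low H2-T23 level was also measured in model mice given huoxue, a herbal formula, instead of rosiglitazone, at 7.53, 7.76 and 7.63. All huoxue muscle arrays lay on the slide of rosiglitazone array 1, which held no other group. Slide and group cannot be told apart for huoxue, and the part of the slide was not tested. Lep was at 7.10, 7.81 and 7.21 and at 6.83, 8.45 and 7.16, a range that overlapped with the rosiglitazone arrays.

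**Figure D5:**
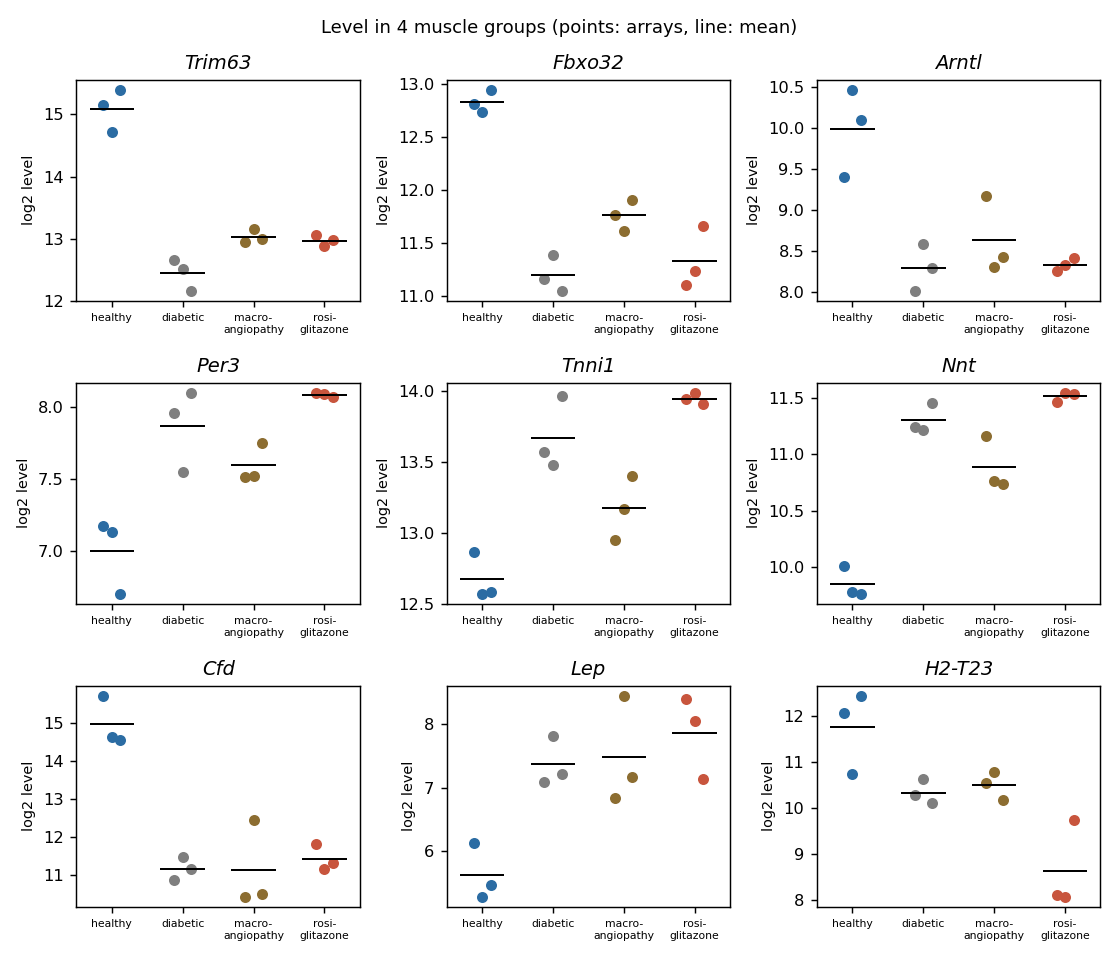
Log2 level (y axes, each on its own scale that does not start at 0) of 9 genes in healthy, diabetic, macroangiopathy and rosiglitazone muscle, with a point per array and the mean as a line. For Trim63, Fbxo32, Arntl and Cfd all arrays of both KK/Ay groups without the drug lie below all healthy arrays. For H2-T23 all rosiglitazone arrays lie below those of the other 3 groups shown.

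The same contrast in aorta used 6 other arrays. All 3 rosiglitazone aorta arrays lay on 1 slide and the healthy aorta arrays on 2 others, so that slide and group cannot be told apart in aorta or in the difference between tissues. Whether muscle and aorta came from the same mice is not stated in the sources used here. Of 15266 genes tested in aorta, 17 (0.111%) were called, 8 higher (0.0524%) and 9 lower (0.059%), and 2086 (13.7%) had an unadjusted p below 0.05. Of the 258 genes called in muscle, 236 were tested in aorta and 12 were called there, all in the same direction, which is 5.08% of the 236 and 75% of the 16 aorta calls that were tested in muscle. The 12 were a, Gdpd3, Pttg1, 5830417I10Rik, 1700020D05Rik, Ccnb1ip1, H4c1, H4c4, Rnase4, Slc43a1, Tomm22 and Zfp874a. The number of aorta calls was 0 without healthy aorta array 3 or rosiglitazone aorta array 2 or 3, 3 without rosiglitazone aorta array 1, and 72 and 58 without healthy aorta arrays 1 and 2.

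In aorta, a had a difference of 3.60 (adjusted p = 0.00681), Gdpd3 of 4.53 (adjusted p = 0.00681) and Pttg1 of -3.11 (adjusted p = 0.00681). Fbxo32 was at 0.59 (adjusted p = 0.643) and Trim63 at -0.79 (adjusted p = 0.676), neither called. The difference between the tissues was tested by an interaction over 12 arrays, and 1 of 15563 genes (0.00643%) was called by limma, with 1950 (12.5%) at an unadjusted p below 0.05. That gene was Tsga10ip, at 6.14, 6.33 and 6.06 in healthy muscle and 7.76, 7.84 and 8.02 in rosiglitazone muscle. Its call was lost with the processed signal, and slide and group cannot be told apart in aorta. None of the muscle differences, that of Tsga10ip included, is therefore shown to be particular to muscle.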

How the data were processed

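The authors ran total RNA on 42 one-colour Agilent arrays, and the deposited scanner files, per the labels' processing notes from Feature Extraction 10.7, give the intensity of 45018 spots, of which 1639 are controls. Their value table holds log2 values deposited by the authors, used as an alternative only. Median intensity was background-corrected with normexp (offset 0) in limma 3.58.1, quantile normalized over 42 arrays, put on the log2 scale and averaged per probe and gene symbol (41174 probes, 34864 with a symbol, 21135 genes), in R 4.3.3 with data.table (version 1.17.8). Symbols came from RefSeq GRCm38.p6 accessions for 27479 probes, and otherwise from symbols in the files. Spots marked as irregular (0.12% to 0.26% per array) were set to missing.

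Genes entered the test if either group had a probe that its 3 arrays all measured well above background. The 6 arrays measured 21284 to 26864 probes at that level, and with 3 arrays per group their number limits the precision. lmFit and eBayes were fitted on the 6 arrays (4 residual degrees of freedom) with Benjamini-Hochberg adjustment, called at 0.05. The fit within the shared slide used 21 muscle arrays, 7 group means and slide as a block. Slides were taken from the barcodes of the scans. A bound of the form at least N-fold sets the mean of the bright group against the higher of a floor, 5.5 on the log2 scale, and the dim probe's level on each array. The floor is the highest among the 6 arrays of the lowest level of a probe well above background.

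Named genes are the 12 largest increases and 12 largest decreases among calls without overlap over the 6 and the 4 shared-slide arrays, up to 4 members per gene list with the smallest unadjusted p, and the checks a, Lep, Nnt, Pparg, Acta1 and Ckm. Members named outside this rule were chosen after their values were seen. The 22 gene lists and 12 marker lists, and the comparison itself, were chosen with earlier results of these data known, and no list was tested as a set. The fits were also run on simulated data with the same spread in all groups. The real healthy group was more variable, so that this run cannot show the rate of false calls here. Alternatives were other background corrections, normalizations, filters, probe rules, slide and replicate blocks, and each array left out in turn.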

Additional observations from a re-analysis of the deposited data

Results flagged for a closer look

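The difference between rosiglitazone and healthy mice was larger in muscle than in aorta for Tsga10ip, by 1.81 on the log2 scale (SE 0.20, interaction in limma, adjusted p = 0.0357). It was 1.70 in muscle (SE 0.14, adjusted p = 0.00322), higher in 3 of 3 rosiglitazone arrays than in any healthy array, and -0.11 in aorta. When processed signals were used with each array set to its 75th percentile, no gene had an adjusted p below 0.05 for this difference, and 1945 had an unadjusted p below 0.05. In aorta slide and group cannot be told apart. A cause was not tested.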

How the results depend on the processing

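The count of 258 muscle genes was within 1.5 times under the other background corrections and normalizations, the authors' values, the brightest probe and the trend and robust options (194 to 308). It was 139 without a filter, 154 with probes well above background on all 6 arrays, 3069 with 21 arrays and 7 group means, 398 with slide as a random block (correlation 0.406), 108 with slide as a fixed block on the 6 arrays, and 2062 with it on 21 arrays. Leaving out 1 array gave 46 to 988. With healthy array 2 as the single healthy array, an alternative chosen after seeing the data in which the lone array is assumed to vary like the other groups, it was 1250, and 231 of the 258 remained.

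With the replicate number as a block, 159 muscle genes were called, of which 141 were among the 258, and 5 aorta genes. Deviations of same-numbered muscle arrays correlated at 0.208, 0.254 and 0.094, of which 1 was not over 0.1, so the numbers were not taken as pairs. The arrays numbered 2 also share a slide. No paired analysis was possible within the shared slide because its arrays carry numbers 1 and 2 in the healthy group and 2 and 3 in the other.

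Within the shared slide the 4 arrays alone called 108 genes in place of 2062. The 17 aorta calls became 0 to 72 when 1 array was left out, with 1062 to 1408 genes at an unadjusted p below 0.05 where limma called 0, and the tissue difference became 0.

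Leaving out 1 array gave -0.43 to 0.32 for Pparg, -0.20 to 0.01 for Acta1 and -0.02 to 0.63 for Ckm. Of 37 named genes called, 16 kept the call in every alternative. Among uncalled genes that changed sign, Acta1 became 0.14 with the processed signal (0.09 within the shared slide) and 0.01 without rosiglitazone array 3, Me1 0.21 with the brightest probe, Pparg 0.32 without healthy array 1, 0.04 without rosiglitazone array 3 and 0.17 against healthy array 2 alone, and Ckm -0.02 without healthy array 3 and -0.28 against healthy array 2 alone. The calls lost were 10 and 6 without healthy arrays 1 and 3, and 19, 20 and 15 without rosiglitazone arrays 1, 2 and 3. The cause of these shifts was not tested.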

Other observations

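Replication-dependent histone H4 genes, which supply the nucleosomes of dividing cells, were among the lower genes and were picked out after their values were seen. H4c4 was at 12.81, 12.34 and 12.01 in healthy muscle and 9.60, 9.67 and 9.59 in rosiglitazone muscle (log2 difference -2.77, SE 0.21, limma adjusted p = 0.00251). H4c9 was at 10.86, 11.60 and 11.10 against 8.67, 9.04 and 8.93, and H4c6 at 13.99, 13.72 and 13.47 against 11.63, 11.72 and 11.63. H4c1 and H4c14 also had an adjusted p below 0.05, at -2.01 and -1.99. The coding sequences of these genes are nearly identical, so that probes may read the same transcripts and the single gene is uncertain.

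Immunity-related GTPases, proteins induced by interferon gamma that act on vacuoles of intracellular pathogens, were lower beside Ifi47, and were also picked out after their values were seen. Irgm2 was at 10.99, 10.64 and 11.57 in healthy muscle and 9.48, 9.12 and 8.82 in rosiglitazone muscle (-1.92, SE 0.28, adjusted p = 0.0248). Tgtp1 was at 8.37, 8.17 and 8.84 against 6.97, 6.52 and 6.14 (-1.92, SE 0.26, adjusted p = 0.0206). The groups did not overlap for either gene.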
